A study of Drosophila melanogaster with 41 samples.

Results

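The gene elav (FBgn0260400), which encodes the neuronal RNA-binding protein ELAV, was followed through 41 mRNA-seq libraries of Drosophila melanogaster. It was found by its FlyBase identifier in the deposited exon tables, where it is cut into 6 of 84619 exon bins and is 1 of 17027 genes or merged genes. An exon bin is a stretch of exon whose edges are the exon edges of any annotated transcript, and a read pair is counted in every bin it touches. All animals were males from stocks kept over GFP-marked balancer chromosomes, and a library was made from 15 whole embryos or 12 adult heads pooled.

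At 14–16 h after egg laying, 4 libraries each came from wild type, Δelav, elavmin and Δelav,fnenFNE embryos. Adult heads, labelled 72 h AH, gave 3 libraries each of wild type, elavmin and Δelav,fnenFNE. At 7–8 h after egg laying, 4 libraries each came from an fnenFNE control and from elavmin,fnenFNE, Δelav,fnenFNE and elavnFNE embryos, so the 7–8 h controls and mutants all lack the normal fne locus. Δelav is a deletion of the elav coding sequence, and which bases of the exon remain is not given in the sources used here. elavmin carries a small CRISPR-made frame shift, which the study's methods place at codon 420, inside the last RNA-recognition motif. It yields low amounts of a truncated protein. In fnenFNE the introns around a mini-exon of the paralog fne were removed, so that only the nuclear form of FNE is made, with a FLAG-V5 tag. In elavnFNE the coding sequence of nuclear FNE, with an HA-V5 tag instead, replaces that of elav at the elav locus, behind the first 12 bases of the coding exon and before the proximal 3′ UTR, and the fne locus makes no mini-exon. Each allele is 1 line.

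ELAV is found in the nuclei of postmitotic neurons and has 3 RNA-recognition motifs. It binds U-rich RNA, promotes the use of distal polyadenylation sites and changes the splicing of many neuronal transcripts. FNE and Rbp9 are its closest relatives in the fly, and nuclear FNE can act on the same RNAs. The elav transcript is itself known to carry a long 3′ UTR, and ELAV is known in the fly to limit the amount of its own mRNA through that region. How much of the gene was read in each genotype, and from which of its bins, was compared here.

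The gene is transcribed from the minus strand of chromosome X (dm6, chrX:509235-523226), and bins are numbered against the direction of transcription. E006 (chrX:522986-523226) is a noncoding first exon of 241 bases used by 3 of the 4 annotated transcripts. E005 (chrX:521440-521696) has 257 bases and is the second exon of 2 transcripts, and its last base is the first base of their start codon. E004 (chrX:520077-520285) has 209 bases and is the noncoding first exon of 1 transcript, FBtr0100254. E003 (chrX:517236-519242) has 2007 bases, is in all 4 transcripts, and holds 1451 coding bases followed by 556 bases of 3′ UTR. E002 (chrX:516850-517235) adds 386 bases of 3′ UTR in 2 transcripts. E001 (chrX:509235-516849) adds 7615 bases of 3′ UTR in 1 transcript, FBtr0307173. The 3′ UTR is therefore 556, 942 or 8557 bases long, and a region listed by the study as the neuronal 3′ UTR of elav covers 3226 bases, 42.4% of E001.

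**Figure D1:**
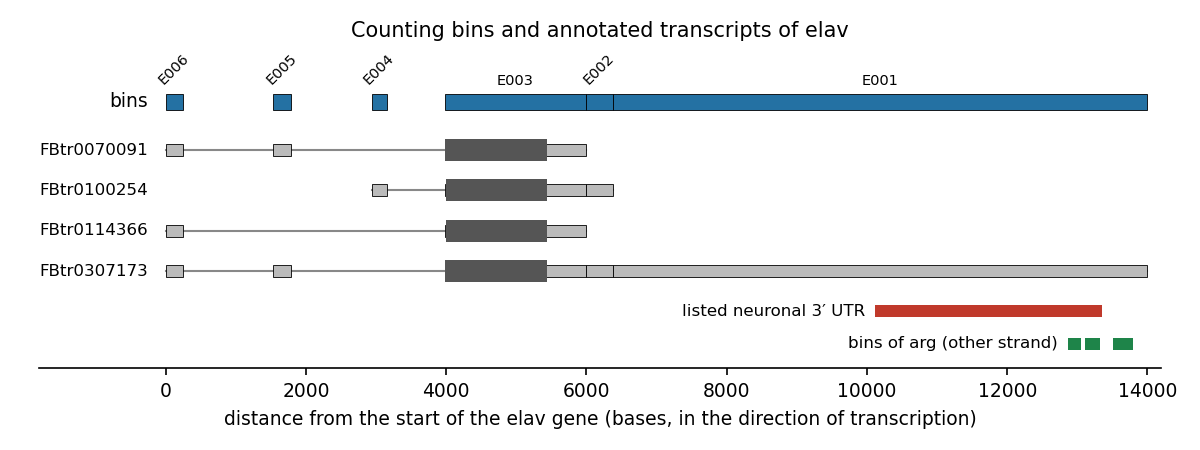
Bins and transcripts of elav drawn to scale, with the distance from the gene start in bases on the horizontal axis; blue boxes are bins, tall dark boxes coding sequence, light boxes untranslated exons and lines introns. The red bar is the neuronal 3′ UTR region and the green bars are the 3 bins of the gene arg, on the other strand, that lie inside E001.

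Transcripts with and without E005 differ in their start codon, while the reading frame and the stop codon are shared. The 3 exon junctions into E003 are shown because transcripts with E005 use a start codon split over the junction, while those that join E004 or E006 to E003 start 12 bases later (coding lengths of 1452 and 1440 bases). Each line gives the last 15 bases of the first bin and the first 15 of E003, from the RefSeq dm6 assembly, with the annotated start codon in capitals.
E005-E003: cctaaactaaaacaATGgactttattatgg
E004-E003: tcttcagtgccgaagtggactttattATGg
E006-E003: cacaccgagcgaaattggactttattATGg
The region of the elavmin frame shift is shown as the reference sequence of codons 416 to 424 (chrX:517972-517998), with codon 420 in capitals and 192 coding bases after that codon. The study's supplement gives the change as TG to CA followed by a loss of TT. In this stretch, TG is followed by TT only after the capitals.
codon 420: gctgccctgtggCAGctgtttggtcca
The last 30 bases of the transcript that ends with E002 are shown because they are the only one of the 3 annotated elav ends with the polyadenylation motif AATAAA, in capitals. Neither AATAAA nor ATTAAA was in the last 30 bases of E003 or E001, where 40.05% and 11.12% of 18336 annotated protein-coding 3′ ends held them on the transcribed strand.
end of E002: acttAATAAAcgagcacgtttaataattct

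Counts on all bins summed to between 17668742 and 51377771 per library, and elav took between 3934 and 35061 of them. Levels are given as CPM, the count per 1000000 counts on all bins of the library, and shares as percent of the elav count of the same library. Short bins count more per base than long ones, since a pair is counted in each bin it touches, so densities are not compared between bins as amounts of RNA. Reads were 100 bp at 7–8 h and 150 bp otherwise, which cannot be told apart from age in comparisons with 7–8 h. No pair of libraries of 1 group agreed within sampling noise. A list of 10 pan-neuronal genes was summed as a mark of neuron content in these whole embryos and heads. The sum was 3173 to 3558 CPM in wild-type embryos at 14–16 h, 9741 to 11300.5 CPM in wild-type heads and 282 to 369.8 CPM in 7–8 h control embryos. Other tissues are in the libraries as well: 5 muscle genes summed to 24479 to 24841 CPM in the wild-type embryos and to 957 to 1126 CPM in the 7–8 h controls. In bulk samples, fewer neurons and less elav RNA per neuron cannot be told apart.

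E001 carries a limit of its own. The gene arg (FBgn0023535), which encodes arginase, lies on the other strand and has 3 bins of 282, 204 and 187 bases inside E001. The counts appeared not to separate strands. In the whole series, the 3 arg bins included, 214 bins lie inside an exon bin of a gene on the other strand. Their median density was 143% of that exon's, and only 7 of them (3.27%) were under 10%. Such bins can have reads of their own, and short bins count more per base, so the check does not settle the point. Counts of the 3 arg bins amounted to 22.7% to 27.2% of the E001 count in wild-type embryos at 14–16 h, to 4.53% to 7.05% in wild-type heads and to 1.13% to 1.65% in 7–8 h controls, and part of them may belong to elav. Results on E001 are therefore also given with these counts taken off where that changed them. A pair that touches several of the 3 arg bins is counted once in E001 but taken off once per bin, so too much may be taken off. The largest of the 3 bins alone amounted to 8.88% to 10.2% of the E001 count in wild-type embryos at 14–16 h. In wild-type heads it amounted to 2.64% to 4.08%.

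In animals with an intact elav gene, elav was most abundant early. In the 7–8 h controls, whose fne locus is modified, its total was 639, 699, 752 and 595 CPM in the 4 libraries, in wild-type embryos at 14–16 h it was 185, 171, 168 and 174 CPM, and in wild-type heads it was 179.7, 208 and 197 CPM. The 7–8 h libraries did not overlap with the others, while the wild-type embryos and heads overlapped. The coding bin E003 held 42.9 ± 1.72% (SD, n = 4) of elav counts at 7–8 h, 35.2 ± 1.46% (SD, n = 4) at 14–16 h and 35.3 ± 2.26% (SD, n = 3) in heads, and the long 3′ UTR bin E001 held 39.3 ± 2.19%, 52.2 ± 1.44% and 54.6 ± 2.63%. With the arg counts taken off, E001 held 38.9 ± 2.16%, 44.9 ± 0.991% and 53.2 ± 2.62% and E003 43.1 ± 1.71%, 40.5 ± 1.17% and 36.4 ± 2.26%. The E001 shares of wild-type embryos and heads overlapped as counted and lay apart with the arg counts taken off (44.2 to 46.3% and 50.7 to 56.0%). The least counted bin was E004 in all 11 groups, with counts of 27 to 274 per library and a share of at most 0.983%.

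Over all 11 groups, the mean total ran from 174 CPM in wild-type embryos at 14–16 h over 195 in wild-type heads, 251 in elavmin heads and 348 in elavmin embryos to 1025 CPM in Δelav,fnenFNE heads. The 6 groups between these extremes lay from 541 to 813 CPM, and every neighbouring pair from elavmin,fnenFNE embryos at 7–8 h upward overlapped in the libraries, the pair with Δelav,fnenFNE heads included. Neighbours that did not overlap were wild-type and elavmin heads, elavmin heads and elavmin embryos at 14–16 h, and elavmin embryos of 14–16 h and elavmin,fnenFNE embryos of 7–8 h. The order on the coding bin E003 was different: wild-type embryos at 14–16 h were again lowest with 61.3 ± 1.76 CPM, elavnFNE embryos at 7–8 h, with 73.0 ± 8.38 CPM (SD, n = 4 each), overlapped with wild-type heads, and the 7–8 h controls were highest with 287 ± 25.2 CPM.

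**Figure D2:**
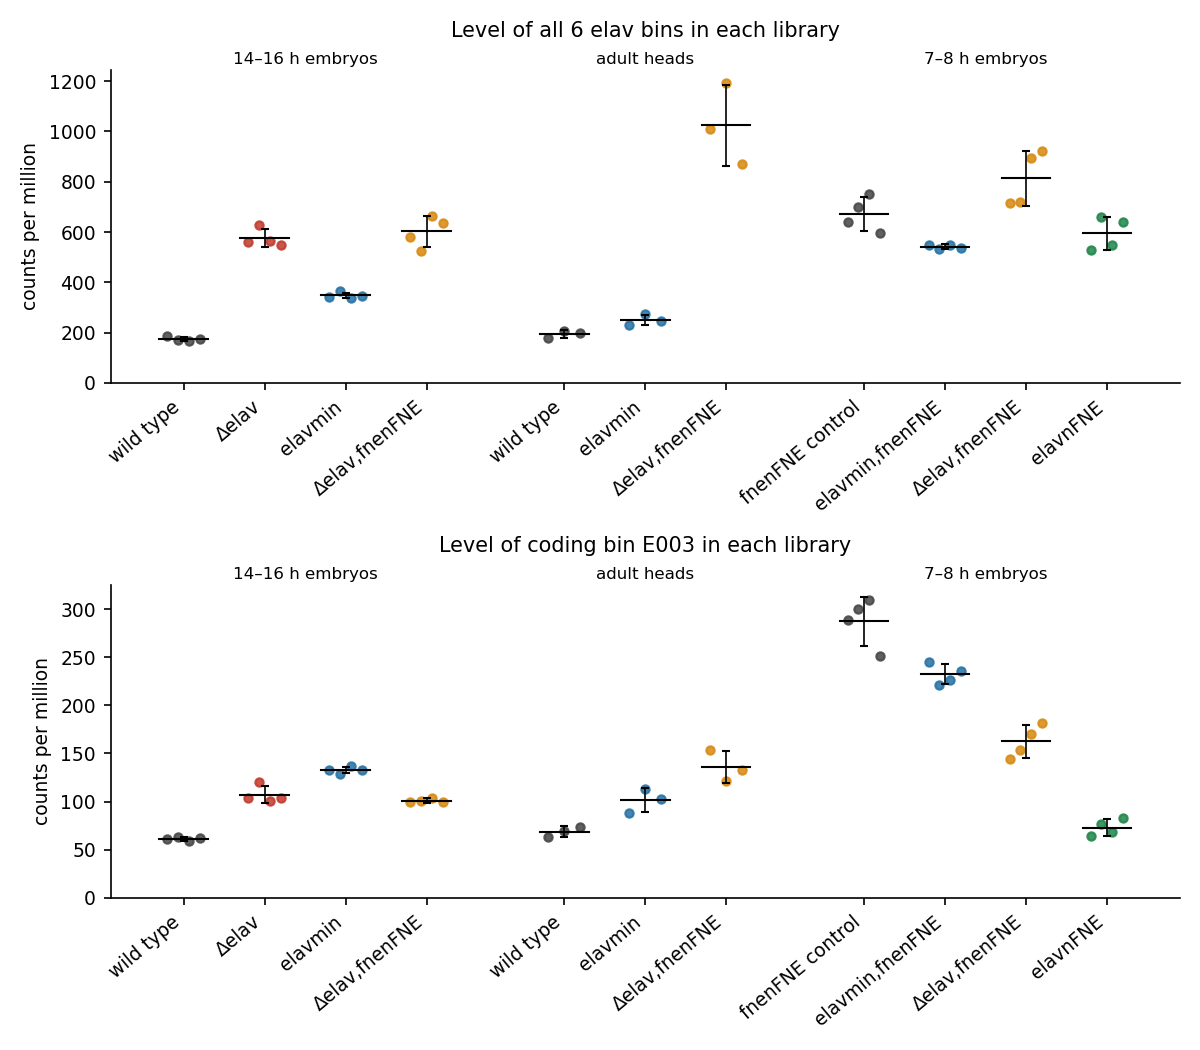
Level in CPM on all 6 elav bins (upper plot) and on the coding bin E003 (lower plot), 1 point per library, with the mean of each group as a line and bars of ± 1 SD, by genotype and stage. In the upper plot the Δelav and Δelav,fnenFNE embryos of 14–16 h lie above 500 CPM and the wild type below 200, and in the lower plot the distance is smaller.

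The first question was what becomes of elav RNA when its coding sequence is deleted. In Δelav embryos at 14–16 h the total rose: 561, 629, 566 and 549 CPM in the 4 libraries, against 185, 171, 168 and 174 CPM in wild type, with no overlap. The log2 fold change over the gene was 1.76 ± 0.05 (SE, adjusted p = 4.5e-10) by edgeR's quasi-likelihood test, with Benjamini-Hochberg adjustment over all genes (threshold 0.05). All 6 bins rose, under a threshold of 0.01 over all bins. Of all features tested between these groups, 22.7% of genes and 8.42% of bins passed the test of levels and 1.51% of bins passed the usage test. The rise was largest at the second exon E005, with 57.9, 67.2, 56.5 and 55.5 CPM in Δelav and 7.27, 7.25, 7.799 and 8.17 CPM in wild type, a log2 fold change of 2.99 ± 0.07 (SE, adjusted p = 5.5e-20). The first exon E006 went from 6.65, 6.28, 6.94 and 6.02 CPM to 36.6, 40.4, 35.5 and 34.2 CPM, with 2.53 ± 0.07 (SE, adjusted p = 1.6e-18).

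The 3′ UTR bins had smaller fold changes than E005. E002 rose by 2.38 ± 0.08 (SE, adjusted p = 1.6e-17), and the long bin E001 went from 100.2, 87.4, 86.2 and 90.4 CPM to 323, 358, 336 and 317 CPM, a rise of 1.90 ± 0.06 (SE, adjusted p = 3.9e-18). The first exon of FBtr0100254, E004, rose by 2.13 ± 0.16 (SE, adjusted p = 4.9e-10) from at most 46 counts per wild-type library. The coding bin E003, part of which the deletion removes, still rose: it had 104, 121, 101 and 104 CPM in Δelav against 61.4, 63.0, 58.8 and 61.9 CPM in wild type, and a log2 fold change of 0.84 ± 0.06 (SE, adjusted p = 7.7e-11). Its share of elav counts was 18.5, 19.2, 17.8 and 18.9% in Δelav and 33.2, 36.8, 35.1 and 35.6% in wild type, with no overlap.

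Bin usage compares the change of a bin with that of its whole gene, the bin included, on the log2 scale, with a threshold of 0.01 over all bins. A bin with a large share of the counts, such as E001, therefore has a smaller usage value than it would have against the other bins. By this test 4 of 6 bins changed in Δelav embryos. E003 fell by 0.92 on the log2 scale (adjusted p = 1.9e-14), and E005, E006 and E002 rose by 1.23 (adjusted p = 5.6e-18), 0.78 (adjusted p = 2.1e-10) and 0.62 (adjusted p = 1.1e-07). A loss of coding counts raises the usage of every other bin by arithmetic, so the test was repeated without E003: E005 kept 0.91 (adjusted p = 7.6e-12) and E006 0.45 (adjusted p = 3.0e-04), while E002 had 0.29 (adjusted p = 0.076). The share of E005 was 10.3, 10.7, 9.97 and 10.1% in Δelav and 3.94, 4.23, 4.65 and 4.70% in wild type. No call of this comparison was lost when any 1 of the 8 libraries was left out. The pan-neuronal genes, given for the amount of neurons, had a sum of 2591 to 3089 CPM in Δelav, below the 3173 to 3558 CPM of wild type, and 6 of 10 fell. The part of the neuron content in the elav values was not tested.

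elavmin keeps the coding exon, so its E003 can be compared with that of wild type up to a few bases. At 14–16 h the total in elavmin was 342, 364, 337 and 347 CPM, apart from wild type and with a log2 fold change of 0.99 ± 0.04 (SE, adjusted p = 1.2e-08) over the gene. Of the 6 bins 5 rose, against 29.7% of all genes and 9.28% of all bins by level and 1.39% of all bins by usage. The coding bin itself rose, from 61.4, 63.0, 58.8 and 61.9 CPM to 133, 128, 137 and 133 CPM, with 1.14 ± 0.05 (SE, adjusted p = 1.1e-13). E005 again rose most, from 7.27, 7.25, 7.799 and 8.17 CPM to 25.4, 22.1, 23.3 and 20.7 CPM, with 1.61 ± 0.08 (SE, adjusted p = 9.6e-13), and E006 rose by 1.25 ± 0.07 (SE, adjusted p = 4.7e-11).

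In the 3′ UTR of elavmin embryos, E002 rose by 1.23 ± 0.08 (SE, adjusted p = 3.5e-10) and E001 by 0.84 ± 0.06 (SE, adjusted p = 3.2e-09). E004 had 1.49, 1.56, 1.22 and 1.83 CPM against 1.20, 0.881, 1.30 and 1.03 CPM and did not pass, with 0.49 ± 0.19 (SE, adjusted p = 0.074). In the usage test only E005 changed, with 0.59 (adjusted p = 8.3e-08). With E003 left out its value was 0.66 (adjusted p = 3.9e-08). E001 took 44.2, 49.4, 43.3 and 46.5% of elav counts in elavmin and 54.3, 51.0, 51.4 and 52.0% in wild type, which did not overlap, but its usage of -0.19 ± 0.07 did not pass (SE, adjusted p = 0.555) in edgeR, while limma voom gave -0.41 (adjusted p = 4.1e-06). No call was lost with any 1 library left out, and the pan-neuronal sum was 2887 to 3284 CPM, with 5 of 10 genes lower.

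Δelav,fnenFNE embryos lack the elav coding sequence but make nuclear FNE from the fne locus. At 14–16 h their elav total was 582, 526, 664 and 638 CPM, overlapping with Δelav, with a log2 fold change against wild type of 1.80 ± 0.07 (SE, adjusted p = 2.2e-08). All 6 bins rose, against 25.6% of all genes and 5.53% of all bins by level and 0.705% of all bins by usage. E005 rose by 2.68 ± 0.08 (SE, adjusted p = 1.8e-11), with 48.2, 48.7, 46.4 and 45.7 CPM, and E006 by 2.37 ± 0.08 (SE, adjusted p = 1.6e-10). E002 rose by 2.58 ± 0.17 (SE, adjusted p = 7.5e-06), E001 by 2.10 ± 0.09 (SE, adjusted p = 4.2e-09) and E004 by 1.997 ± 0.15 (SE, adjusted p = 8.4e-07). E003, with 99.4, 101, 104 and 99.6 CPM, rose by 0.77 ± 0.06 (SE, adjusted p = 1.3e-06). The pan-neuronal sum was 2752 to 2965 CPM, with 6 of 10 genes lower.

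In usage, 4 of 6 bins changed in Δelav,fnenFNE embryos: E003 with -1.07 (adjusted p = 1.3e-10), E005 with 0.84 (adjusted p = 2.6e-07), E002 with 0.75 (adjusted p = 5.0e-06) and E006 with 0.53 (adjusted p = 0.0025). Without E003 in the table, none of the 3 higher bins passed, and E005 had 0.48 (adjusted p = 0.015). The call at E006 was also lost without wild-type replicate 1, 2 or 4 or Δelav,fnenFNE replicate 1, with adjusted p from 0.020 to 0.043, with the arg counts taken off E001 (adjusted p = 0.049), and by limma voom (adjusted p = 0.052).

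**Figure D3:**
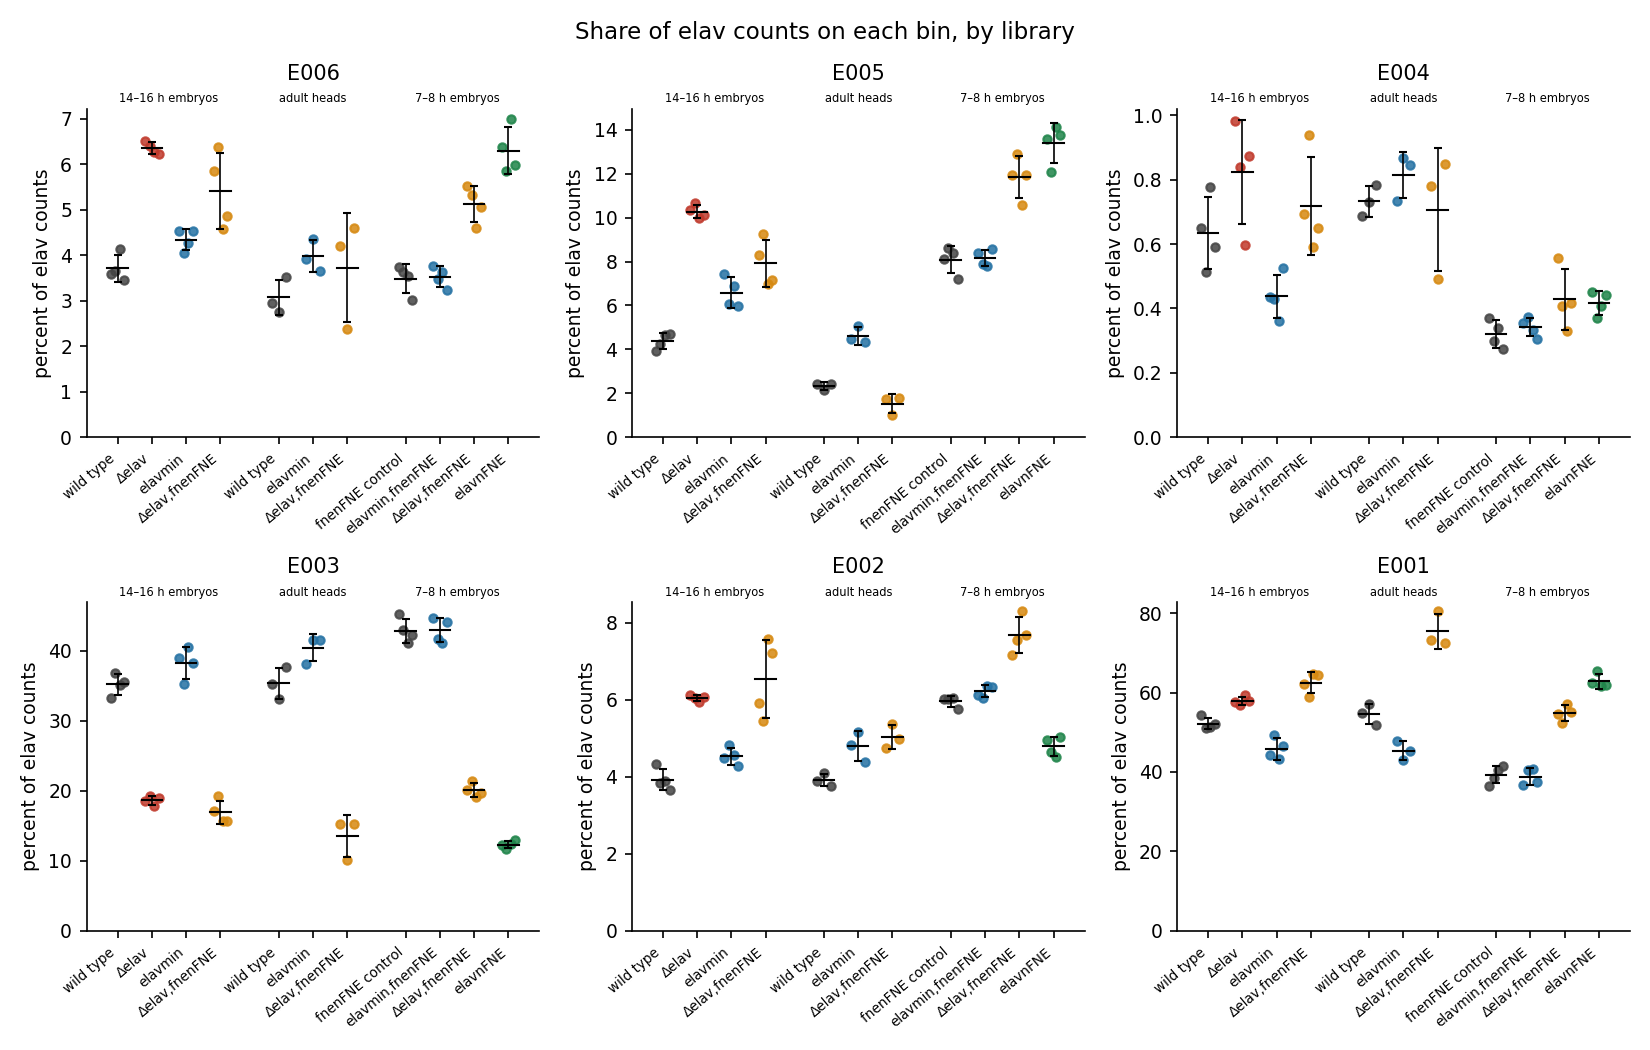
Percent of the elav counts of a library on each of the 6 bins, 1 panel per bin in the direction of transcription from E006 to E001, with a point per library, the group mean as a line and bars of ± 1 SD. The E003 panel separates the groups with the elav coding sequence, all above 30%, from those without it, all below 25%, and the E005 panel shows higher shares in the mutants than in wild type at 14–16 h.

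The mutants were also compared directly. Between Δelav,fnenFNE and Δelav embryos no bin of 6 passed by level or usage, against 4.79% of all genes and 0.969% of all bins by level and 0.604% of all bins by usage, and the gene-level difference was 0.05 ± 0.07 (SE, adjusted p = 0.727). At an unadjusted p under 0.05, 2 bins passed by level. The smallest adjusted p was at E005, where Δelav,fnenFNE had -0.32 ± 0.08 (SE, adjusted p = 0.037), and its usage of -0.39 (adjusted p = 0.060) passed without Δelav,fnenFNE replicate 2 (adjusted p = 0.0027). Against Δelav, elavmin was lower over the gene, with -0.76 ± 0.05 (SE, adjusted p = 3.7e-06). All 6 bins differed by level and 5 by usage, against 16.3% of all genes and 3.31% of all bins by level and 0.361% of all bins by usage: E001, E002, E004, E005 and E006 were lower in elavmin, at log2 values from -1.64 to -1.07, and E003 was higher by 0.30 ± 0.06 (SE, adjusted p = 0.0018). Without E003 no usage call of this pair was kept. With the arg counts taken off, E001 usage passed as well, from -0.33 (adjusted p = 0.033) to -0.47 (adjusted p = 5.7e-05), and that of E002 was no longer called (adjusted p = 0.045), nor was it by limma voom (adjusted p = 0.040). The level of E003 and the usage of E002 there were no longer called without Δelav replicate 1 or 4 or elavmin replicate 1 or 4 (adjusted p of 0.011 to 0.015 and 0.017 to 0.049). Against elavmin, Δelav,fnenFNE was higher at the same 5 bins, with log2 values from 1.07 to 1.51, and lower at E003, with -0.37 ± 0.06 (SE, adjusted p = 0.0034). In that pair all 6 bins passed by level and 2 by usage, against 13.4% of all genes and 1.35% of all bins by level and 0.458% of all bins by usage. Without E003 the usage of E002 went from 0.54 (adjusted p = 0.0015) to 0.11 (adjusted p = 1). E001 usage, 0.45 (adjusted p = 0.014) as counted, passed with the arg counts taken off, 0.59 (adjusted p = 3.9e-04), and by limma voom (adjusted p = 0.0014). The E003 level call was lost without elavmin replicate 1, 3 or 4 or Δelav,fnenFNE replicate 4 (adjusted p of 0.013 to 0.022), and the E002 usage call without any of these or Δelav,fnenFNE replicate 3 (adjusted p of 0.015 to 0.028). Further usage calls appeared, E001 without Δelav,fnenFNE replicate 2 (adjusted p = 0.0027) and E004 without its replicate 3 (adjusted p = 0.0088).

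In adult heads elavmin changed the elav total less than in embryos, by the interaction test given with the stages. Its total was 231, 273 and 247 CPM in the 3 libraries against 179.7, 208 and 197 CPM in wild type, which did not overlap. The log2 fold change over the gene was 0.27 ± 0.08 (SE, adjusted p = 0.046). That call was lost without any of wild-type replicates 1, 2 and 3 or elavmin replicates 2 and 3, with adjusted p of 0.062 to 0.157. Of the 6 bins 4 rose, against 20.2% of all genes and 6.43% of all bins by level and 0.919% of all bins by usage. E005 rose most, from 4.38, 4.47 and 4.75 CPM to 10.3, 13.9 and 10.7 CPM, with 1.29 ± 0.13 (SE, adjusted p = 1.0e-05), and its usage of 0.99 (adjusted p = 4.6e-06) was the only call of usage. Without E003 the usage was 1.11 (adjusted p = 1.1e-06), and both E005 calls held with any 1 library left out.

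E006, E002 and E003 rose by 0.67 ± 0.14 (SE, adjusted p = 0.0048), 0.59 ± 0.13 (SE, adjusted p = 0.0053) and 0.50 ± 0.09 (SE, adjusted p = 0.0023) in elavmin heads, and each of these calls was lost without some libraries (E006 without wild-type replicate 1 or 2 or elavmin replicate 2 or 3, E002 without any library but elavmin replicate 1, E003 without wild-type replicate 1 or 2 or elavmin replicate 3), at adjusted p of 0.011 to 0.033. The long bin did not pass: E001 had 111, 118 and 112 CPM in elavmin and 98.5, 119 and 102 CPM in wild type, which overlapped, and a log2 fold change of 0.03 ± 0.09 (SE, adjusted p = 0.871). Its usage had -0.27 (adjusted p = 0.648) in edgeR and -0.63 (adjusted p = 1.7e-04) in limma voom. E004 had 0.46 ± 0.23 (SE, adjusted p = 0.225). Heads also differed in photoreceptor genes, whose summed level over 9 genes was 76354 to 81539 CPM in wild type, 44225 to 45149 CPM in elavmin and 579.9 to 639 CPM in Δelav,fnenFNE. Taking these genes out of the table before normalization left all 36 bin and 36 usage results of the comparisons with heads on their side of the threshold and gave the gene-level change an adjusted p of 0.051. The pan-neuronal sums were 8513 to 10421 CPM in elavmin and 9126 to 9715 CPM in Δelav,fnenFNE, against 9741 to 11300.5 CPM in wild type, with 5 genes of 10 lower in each mutant and brp higher in elavmin.

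Δelav,fnenFNE heads had the highest mean elav total of the series, with 1009, 1193 and 872 CPM, which overlapped with Δelav,fnenFNE embryos of 7–8 h. By bin, their mean was the highest on E001 and E004 and not on the other bins. The gene rose by 2.22 ± 0.12 (SE, adjusted p = 1.8e-06), and all 6 bins rose, against 28.3% of all genes and 6.13% of all bins by level and 0.995% of all bins by usage. The long bin E001 rose most, from 98.5, 119 and 102 CPM to 739, 961 and 632 CPM, with 2.76 ± 0.18 (SE, adjusted p = 4.7e-06), followed by E002 with 2.66 ± 0.18 (SE, adjusted p = 5.3e-06) and E006 with 2.52 ± 0.18 (SE, adjusted p = 8.4e-06). E005, the bin with the largest rise in the other comparisons with wild type, rose by 1.64 ± 0.16 (SE, adjusted p = 9.9e-05), from 4.38, 4.47 and 4.75 CPM to 17.8, 12.3 and 15.6 CPM. E003 had 154, 121 and 133 CPM and rose by 0.88 ± 0.13 (SE, adjusted p = 0.0017), a call lost without any 1 of the wild-type libraries (adjusted p of 0.011 to 0.017).

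By usage only E003 changed in Δelav,fnenFNE heads, with -1.41 (adjusted p = 9.7e-07), and E001 had 0.47 (adjusted p = 0.334) in edgeR and 0.88 (adjusted p = 0.0035) in limma voom. E005 had a usage of -0.65 ± 0.19 (SE, adjusted p = 0.106), and with E003 left out it fell to -1.07 (adjusted p = 0.0011). The 3 libraries were uneven: replicate 2 had 80.6% of its elav counts on E001 and 10.1% on E003, where the others had at most 73.3% and at least 15.2%. Against elavmin heads, Δelav,fnenFNE heads were higher over the gene by 1.96 ± 0.13 (SE, adjusted p = 1.4e-05). In that pair 4 bins rose and 2 changed in usage, against 11.3% of all genes and 2.54% of all bins by level and 0.644% of all bins by usage. E001 was higher by 2.77 ± 0.18 (SE, adjusted p = 6.4e-06), while E005 with 0.38 ± 0.16 (SE, adjusted p = 0.253) and E003 with 0.41 ± 0.13 (SE, adjusted p = 0.127) did not pass. E005 usage fell by 1.64 on the log2 scale (adjusted p = 3.1e-07), and had -2.19 (adjusted p = 6.7e-09) without E003. E001 usage had 0.75 (adjusted p = 0.014) in edgeR and 1.53 (adjusted p = 9.8e-07) in limma voom, and passed in edgeR without Δelav,fnenFNE replicate 2 (adjusted p = 0.0022).

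**Figure D4:**
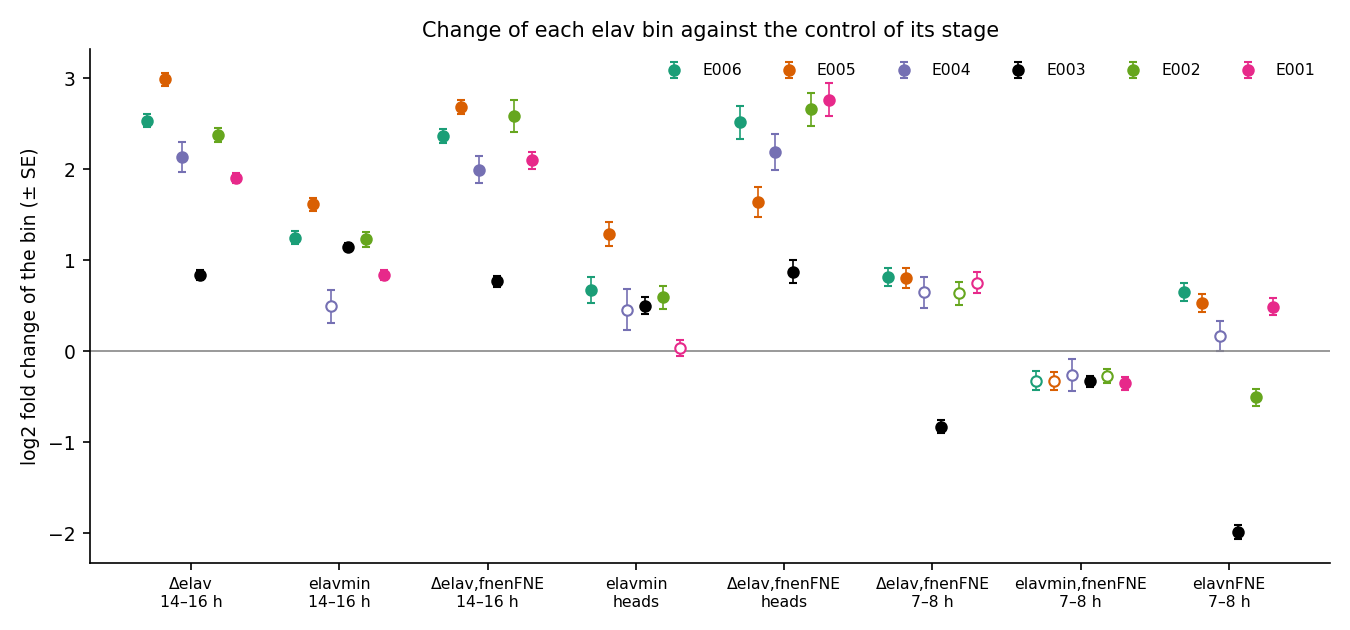
Log2 fold change of each elav bin against the control of its stage, with bars of ± 1 SE from edgeR, for the 8 comparisons of a mutant with a control; filled points passed an adjusted p of 0.01 over all bins and open points did not. E005 is the highest point for Δelav and elavmin at 14–16 h and for elavmin heads, and E001 is the highest in Δelav,fnenFNE heads.

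Whether a mutant moved elav differently in heads and in embryos of 14–16 h was tested with an interaction term. For elavmin, the change over the gene was smaller in heads, with a difference of -0.71 ± 0.09 (SE, adjusted p = 8.7e-05). At 3 bins the difference passed, against 17.6% of all genes and 3.68% of all bins by level and 0.378% of all bins by usage: E001 with -0.82 ± 0.11 (SE, adjusted p = 1.7e-05), E003 with -0.66 ± 0.10 (SE, adjusted p = 1.3e-04) and E002 with -0.65 ± 0.15 (SE, adjusted p = 0.0063). The E002 call was lost in 11 of 14 fits without 1 library, all but those without wild-type embryo replicate 1, wild-type head replicate 1 or elavmin head replicate 2, with adjusted p of 0.011 to 0.029. E006 passed without either of these head libraries (adjusted p of 0.0030 to 0.0096). The rise of E005 had a difference of -0.33 ± 0.15 (SE, adjusted p = 0.193), which did not pass. For Δelav,fnenFNE the change over the gene was larger in heads by 0.42 ± 0.13 (SE, adjusted p = 0.028), and this was lost without any of 5 libraries (wild-type embryo replicate 1, Δelav,fnenFNE embryo replicate 2, wild-type head replicates 1 and 3, Δelav,fnenFNE head replicate 2), with adjusted p of 0.051 to 0.074. Only E005 passed among its bins, against 22.9% of all genes and 5.34% of all bins by level and 0.552% of all bins by usage: its change was smaller in heads, with a difference of -0.98 ± 0.17 (SE, adjusted p = 6.4e-04) in level and -1.49 ± 0.21 (SE, adjusted p = 5.6e-07) in usage. E001 passed by level without Δelav,fnenFNE head replicate 3 (adjusted p = 0.0025).

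The same stages were also compared within a genotype, where most genes passed the test. Between wild-type heads and wild-type embryos of 14–16 h the elav total differed by -0.04 ± 0.06 (SE, adjusted p = 0.503), which did not pass, and 2 bins of 6 passed by level and 1 by usage, against 85.1% of all genes and 72.6% of all bins by level and 14.5% of all bins by usage. E005 fell by 1.04 on the log2 scale (adjusted p = 2.4e-08) and E006 by 0.40 (adjusted p = 0.0035), and the E006 call was lost without embryo replicate 3 or head replicate 1 or 2 (adjusted p of 0.0102 to 0.025). E001 had -0.07 ± 0.08 (SE, adjusted p = 0.433) as counted and rose by 0.28 (adjusted p = 0.0019) with the arg counts taken off, and E006 usage then passed too, with -0.43 (adjusted p = 0.0074). Both depend on a subtraction that may take off too much, most of all in the embryos. In elavmin, heads were lower over the gene, with -0.77 ± 0.07 (SE, adjusted p = 2.2e-06), 5 bins lower by level and 2 changed in usage, against 83.2% of all genes and 70.0% of all bins by level and 11.9% of all bins by usage. The usage of E005 was lower there with -0.51 (adjusted p = 2.3e-04) and that of E004 higher with 0.91 (adjusted p = 8.3e-04), and both were lost without elavmin head replicate 3 (adjusted p of 0.011 and 0.011). In Δelav,fnenFNE, heads were higher by 0.44 ± 0.11 (SE, adjusted p = 0.0042), with E001 higher by 0.68 ± 0.16 (SE, adjusted p = 0.0025) and E005 lower with -1.99 ± 0.14 (SE, adjusted p = 3.8e-07), the 2 bins called by level beside 1 by usage, against 81.0% of all genes and 61.4% of all bins by level and 8.88% of all bins by usage. E001 usage had 0.28 (adjusted p = 0.396) in edgeR and 1.02 (adjusted p = 3.7e-06) in limma voom. With the arg counts taken off, E006 usage was lower there too, with -0.63 (adjusted p = 0.0091). The call at E001 was lost without Δelav,fnenFNE embryo replicate 1 or 2 (adjusted p of 0.012 to 0.014).

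Comparisons with 7–8 h cross a change of read length and, for wild type, of the fne allele. Wild-type embryos of 14–16 h against 7–8 h controls had all 6 bins lower and 4 changed in usage, against 90.5% of all genes and 84.1% of all bins by level and 16.9% of all bins by usage, with -1.62 ± 0.07 (SE, adjusted p = 4.8e-10) over the gene. E005 usage was lower there with -0.89 (adjusted p = 6.7e-10) and E002 usage with -0.60 (adjusted p = 1.2e-05), and E001 and E004 usage were higher with 0.41 (adjusted p = 4.3e-04) and 0.95 (adjusted p = 6.4e-04). The call at E001 was lost with the arg counts taken off (adjusted p = 0.112), and E003 usage passed without control replicate 4 (adjusted p = 0.0054). Between Δelav,fnenFNE embryos of 14–16 h and 7–8 h the gene differed by -0.04 ± 0.10 (SE, adjusted p = 0.681), with 3 bins called by level and 2 by usage, against 90.1% of all genes and 81.2% of all bins by level and 12.5% of all bins by usage. E005 and E003 fell with -0.77 (adjusted p = 3.0e-07) and -0.44 (adjusted p = 8.4e-05), and E004 rose with 0.56 (adjusted p = 0.0024), which was lost without 7–8 h Δelav,fnenFNE replicate 2 or 3 (adjusted p of 0.011 to 0.014). Its usage call was lost without 14–16 h replicate 2 or 7–8 h replicate 3 (adjusted p of 0.013 to 0.021). E001 usage there had 0.19 (adjusted p = 0.405) in edgeR and 0.39 (adjusted p = 0.0070) in limma voom.

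At 7–8 h, when the nervous system is still forming, the mutants were compared with fnenFNE embryos. Δelav,fnenFNE and elavmin,fnenFNE carry the fne allele of that control, and elavnFNE does not. Δelav,fnenFNE embryos had 717, 719, 894 and 923 CPM of elav against 639, 699, 752 and 595 CPM in the control, which overlapped, and the change over the gene of 0.29 ± 0.10 (SE, adjusted p = 0.173) did not pass. It was 0.77 (adjusted p = 0.0080) when the coding bin was left out of the total. By level 3 of 6 bins changed and by usage 3, against 2.96% of all genes and 0.902% of all bins by level and 0.634% of all bins by usage. E003 fell, from 289, 299.7, 309 and 251 CPM to 144, 153, 170.3 and 182 CPM, with -0.83 ± 0.07 (SE, adjusted p = 3.7e-06). E006 and E005 rose by 0.81 ± 0.10 (SE, adjusted p = 2.6e-04) and 0.81 ± 0.11 (SE, adjusted p = 0.0022). E005 had 85.7, 92.8, 94.4 and 110.2 CPM against 51.9, 60.1, 63.2 and 42.9 CPM in the control, with no overlap.

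The call at E005 was lost without control replicate 1 or Δelav,fnenFNE replicate 3 (adjusted p of 0.011 to 0.018). E001, E002 and E004 had 0.76 ± 0.12 (SE, adjusted p = 0.015), 0.64 ± 0.13 (SE, adjusted p = 0.031) and 0.65 ± 0.17 (SE, adjusted p = 0.055) in these embryos and did not pass, E001 and E002 passing without some libraries (E001 without control replicate 3 or Δelav,fnenFNE replicate 2, E002 without Δelav,fnenFNE replicate 1, adjusted p of 0.0057 to 0.0070). In usage E003 had -1.10 (adjusted p = 2.9e-09), and E005 and E001 passed with 0.54 (adjusted p = 0.0072) and 0.48 (adjusted p = 0.0094). The call at E005 was not kept by limma voom (adjusted p = 0.024). Each of these last calls was lost in 7 of the 8 fits without 1 library, all but that without control replicate 3 for E005 and control replicate 4 for E001, at adjusted p of 0.012 to 0.135. Without E003 in the table, E005 had a usage of 0.05 (adjusted p = 1) and E001 of 0.00089 (adjusted p = 1).

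In elavmin,fnenFNE embryos at 7–8 h elav was lower than in the control, the opposite direction to elavmin at 14–16 h. The totals were 548, 531, 550.2 and 535 CPM against 639, 699, 752 and 595 CPM, which did not overlap, with -0.32 ± 0.06 (SE, adjusted p = 0.012) over the gene. By level 2 of 6 bins fell and by usage none of 6 changed, against 6.4% of all genes and 1.46% of all bins by level and 0.153% of all bins by usage. E003 fell from 289, 299.7, 309 and 251 CPM to 245, 222, 226 and 236 CPM, with -0.33 ± 0.06 (SE, adjusted p = 0.0039), and E001 fell by 0.35 on the log2 scale (adjusted p = 0.0099). Both calls were lost in most fits without 1 library (E003 in 6 of 8, all but those without control replicate 4 or elavmin,fnenFNE replicate 1, and E001 in 7 of 8, all but that without control replicate 1), at adjusted p of 0.011 to 0.045. Without control replicate 4, E005 and E006 passed too, with adjusted p of 0.0024 and 0.0048. All 6 bins had log2 values between -0.35 and -0.26, and the shares of the 2 groups overlapped at every bin. In the usage test the 6 values ran from -0.02 to 0.07, 0 of them at an unadjusted p under 0.05 in edgeR. The difference between 7–8 h and 14–16 h was not tested, since the control and the read length differ. With the arg counts taken off, E001 was no longer called (adjusted p = 0.0105).

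elavnFNE embryos transcribe the FNE coding sequence from the elav locus, so elav counts come from what remains around it. Their fne allele also differs from that of the control and of the other 7–8 h mutants, and the part of the elav allele and of the fne allele in a difference cannot be told apart. The total was 527, 661, 548 and 642 CPM, overlapping with the control, and -0.17 ± 0.08 (SE, adjusted p = 0.226) over the gene did not pass. Without the coding bin the sign turned, to 0.44 (adjusted p = 0.014). Of 6 bins 5 changed by level and 4 by usage, against 9.71% of all genes and 2.33% of all bins by level and 0.313% of all bins by usage. E003 fell from 289, 299.7, 309 and 251 CPM to 64.4, 76.7, 68.0 and 82.9 CPM, with -1.99 ± 0.08 (SE, adjusted p = 8.7e-12). The first exons rose: E006 had 33.7, 38.7, 38.3 and 38.4 CPM against 23.9, 25.4, 26.7 and 18.0 CPM, with 0.65 ± 0.10 (SE, adjusted p = 4.5e-04), and E005 rose by 0.53 ± 0.10 (SE, adjusted p = 0.0064), with 71.7, 79.7, 77.3 and 88.4 CPM.

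The 3′ UTR bins of elavnFNE embryos went apart. E001 rose from 234, 269, 305 and 247 CPM to 329, 433, 337 and 397 CPM, with 0.49 ± 0.09 (SE, adjusted p = 0.0084). E002, the proximal extension, fell from 38.5, 42.0, 45.5 and 34.2 CPM to 26.1, 30.7, 24.7 and 32.2 CPM, with -0.51 ± 0.09 (SE, adjusted p = 0.0023). The calls at E001, E002 and E005 were lost without some libraries (E001 without control replicate 1, 2 or 4 or elavnFNE replicate 4, E002 without control replicate 2 or elavnFNE replicate 1, E005 without control replicate 1 or any elavnFNE library), at adjusted p of 0.012 to 0.056, and that at E001 also with the arg counts taken off (adjusted p = 0.0105). In usage E003 had -1.801 (adjusted p = 2.6e-18), and E006, E005 and E001 had 0.84 (adjusted p = 1.4e-06), 0.72 (adjusted p = 9.6e-06) and 0.68 (adjusted p = 7.1e-06). With E003 left out, none of these 3 passed and E002 alone did, with -0.93 (adjusted p = 2.9e-07). The share of E002 was 4.96, 4.64, 4.51 and 5.02% in elavnFNE and 6.03, 6.01, 6.05 and 5.75% in the control.

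Among the 7–8 h mutants, Δelav,fnenFNE and elavnFNE both lack the elav coding sequence. Between them elavnFNE was lower over the gene, with -0.47 ± 0.10 (SE, adjusted p = 0.018), a call lost without elavnFNE replicate 1 or 3 (adjusted p of 0.056 to 0.058). There 2 bins differed by level and 2 by usage, against 7.15% of all genes and 2.11% of all bins by level and 0.294% of all bins by usage: E003 was lower with -1.17 ± 0.08 (SE, adjusted p = 1.2e-08) and E002 with -1.15 ± 0.12 (SE, adjusted p = 2.1e-04). The usage of E002 stayed at -0.82 (adjusted p = 2.3e-06) without E003. E006, E005 and E001 had -0.17 (adjusted p = 0.265), -0.29 (adjusted p = 0.033) and -0.27 (adjusted p = 0.310). Against Δelav,fnenFNE, elavmin,fnenFNE embryos were lower over the gene, with -0.62 ± 0.08 (SE, adjusted p = 0.0043), and had all 6 bins called by level and 4 by usage, against 2.52% of all genes and 0.422% of all bins by level and 0.108% of all bins by usage. Only E003 was higher there, by 0.49 ± 0.07 (SE, adjusted p = 8.4e-04), and no other bin passed in usage without E003. The level of E002 was no longer called without any 1 elavmin,fnenFNE library (adjusted p of 0.0104 to 0.014), and that of E004 without any library but Δelav,fnenFNE replicate 3 (adjusted p of 0.011 to 0.041). By limma voom its usage calls at E005 and E006 were not kept (adjusted p of 0.0105 and 0.067). Its usage calls at E001, E005 and E006 were lost without elavmin,fnenFNE replicate 1 or 4 for all 3, without its replicates 2 and 3 for E005 and E006, and without Δelav,fnenFNE replicate 1 or 2 for E006 (adjusted p of 0.011 to 0.138). Against elavmin,fnenFNE, elavnFNE embryos had 0.15 ± 0.07 (SE, adjusted p = 0.186) over the gene, with 4 bins called by level and 4 by usage, against 10.9% of all genes and 2.97% of all bins by level and 0.257% of all bins by usage. Without E003 the usage calls at E006, E001 and E005, 0.83 (adjusted p = 1.2e-09), 0.70 (adjusted p = 1.6e-09) and 0.71 (adjusted p = 9.3e-09), went to 0.21 (adjusted p = 1), 0.08 (adjusted p = 1) and 0.09 (adjusted p = 1). By limma voom E002 usage, -0.38 (adjusted p = 0.016) in edgeR, passed with an adjusted p of 0.0077. E002 in that pair had -0.24 (adjusted p = 0.084) by level, and -0.998 (adjusted p = 3.7e-12) by usage with E003 left out.

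Ratios between bins other than E003 do not use the coding counts. E005 and E006 are the second and the first exon of the transcripts that start farthest from the coding exon, and E006 can also be joined to E003 directly. The count of E005 per count of E006 was 1.09, 1.15, 1.12 and 1.36 in wild-type embryos at 14–16 h. It was 1.58, 1.66, 1.59 and 1.63 in Δelav, 1.64, 1.499, 1.62 and 1.32 in elavmin and 1.42, 1.45, 1.52 and 1.47 in Δelav,fnenFNE. All 4 libraries of Δelav and of Δelav,fnenFNE were above every wild-type library, and 1 elavmin library was not.

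In heads the same ratio was 0.828, 0.777 and 0.688 in wild type and 1.14, 1.17 and 1.18 in elavmin, and in Δelav,fnenFNE it was 0.417, 0.435 and 0.389. The head groups did not overlap, with Δelav,fnenFNE below and elavmin above wild type. Among 7–8 h embryos the ratio was 2.32 ± 0.1003 in the control and 2.32 ± 0.221, 2.31 ± 0.112 and 2.13 ± 0.125 in elavmin,fnenFNE, Δelav,fnenFNE and elavnFNE (SD, n = 4 each), with overlapping libraries. No test was run on these ratios.

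The density of E001 relative to that of E002, both per base, sets the distal extension of the 3′ UTR beside the proximal one. This ratio was 0.676 ± 0.0342 in wild-type embryos at 14–16 h and 0.486 ± 0.0142, 0.514 ± 0.0300 and 0.491 ± 0.0571 in Δelav, elavmin and Δelav,fnenFNE (SD, n = 4 each), all lower and without overlap with wild type as counted. With the arg counts taken off E001 it was 0.504 ± 0.0292 in wild type (0.463 to 0.529), 0.448 ± 0.0145 in Δelav (0.439 to 0.469), 0.408 ± 0.0252 in elavmin (0.383 to 0.441) and 0.448 ± 0.0464 in Δelav,fnenFNE (0.401 to 0.495), so that Δelav and Δelav,fnenFNE overlapped with wild type and only elavmin stayed apart. In heads it was 0.708 ± 0.00735 in wild type, 0.484 ± 0.0534 in elavmin and 0.760 ± 0.0225 in Δelav,fnenFNE (SD, n = 3 each), the 3 groups being apart. At 7–8 h it was 0.335 ± 0.0245 in the control, 0.317 ± 0.0191 in elavmin,fnenFNE, 0.363 ± 0.0170 in Δelav,fnenFNE and 0.667 ± 0.0428 in elavnFNE, where only elavnFNE was apart from the control. Taking the arg counts off left the 3 head groups apart and elavnFNE apart from the control. The subtraction may take off too much, since pairs that touch several arg bins are taken off more than once. Whether Δelav and Δelav,fnenFNE would still overlap with wild type with less taken off was not tested. As a ratio without a test, E001 relative to E002 describes these libraries only.

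**Figure D5:**
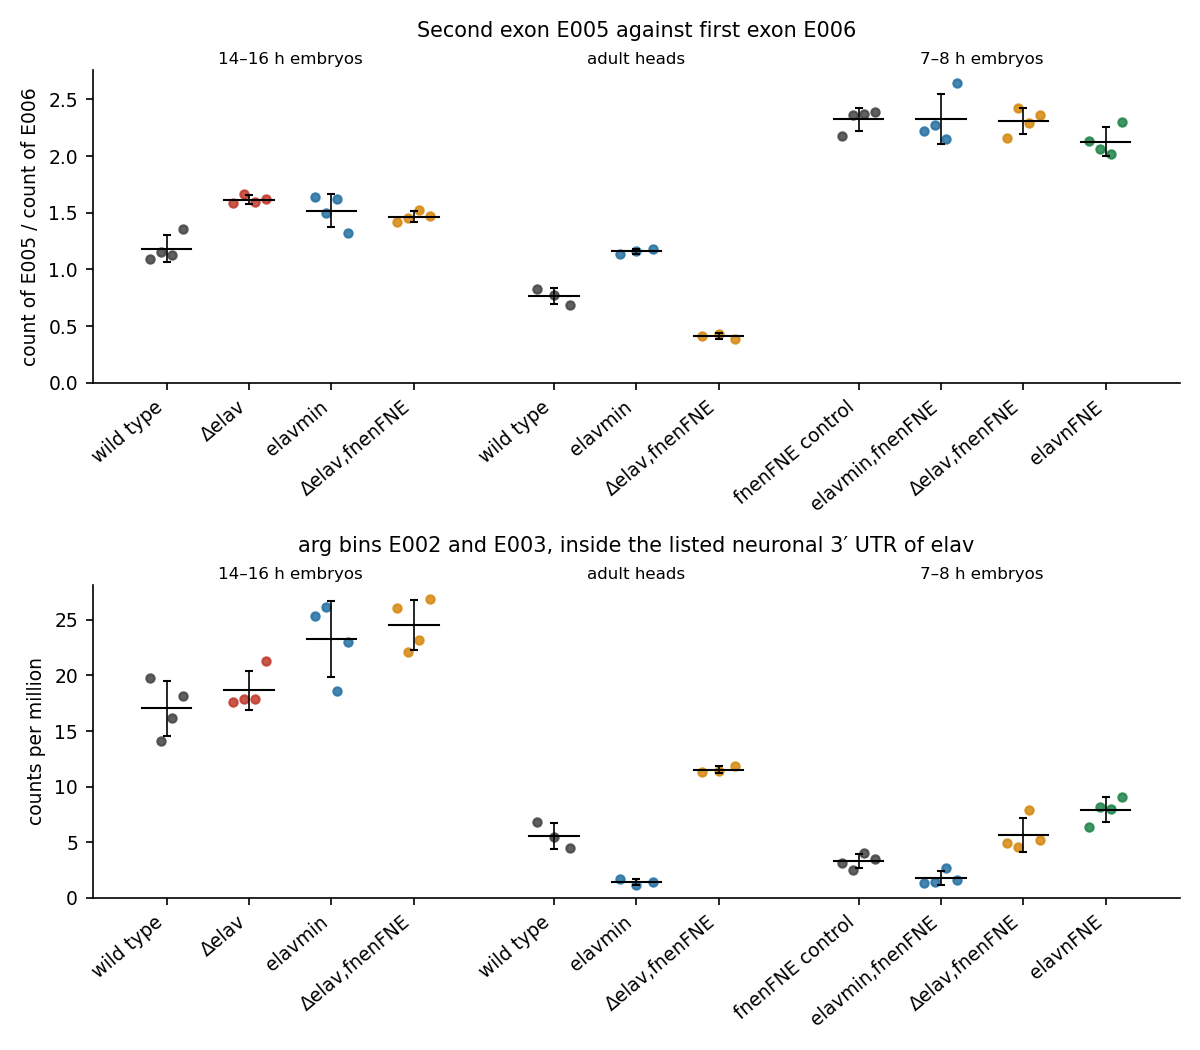
Upper plot, count of E005 divided by count of E006; lower plot, summed CPM of the 2 arg bins that lie inside the neuronal 3′ UTR of elav, for each library, with group means as lines and bars of ± 1 SD. Heads separate into 3 levels in both plots, with elavmin highest in the upper one and lowest in the lower one.

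The arg bins inside E001 lie over the distal 3′ UTR. They were chosen after their values had been seen, so their p-values are a description. The arg bins E002 and E003 lie in the neuronal 3′ UTR region of elav, and arg E004 and E005 lie outside elav. In heads, arg E003 had 4.02, 3.14 and 2.95 CPM in wild type, 1.08, 0.564 and 0.996 CPM in elavmin and 7.05, 6.88 and 6.89 CPM in Δelav,fnenFNE. The 3 groups did not overlap. The third arg bin inside elav E001, arg E001, had only 2 to 21 counts per head library and was not tested between head groups. Outside elav, arg E005 had 18 to 29 counts per wild-type head library and 22 to 29 in elavmin. In elavmin heads arg E003 fell with -1.98 ± 0.26 (SE, adjusted p = 8.8e-05) and arg E002 with -2.15 ± 0.32 (SE, adjusted p = 3.2e-04), while arg E005, outside elav, had 0.36 ± 0.29 (SE, adjusted p = 0.489) from 1.05 CPM. In Δelav,fnenFNE heads arg E003 rose by 0.94 ± 0.16 (SE, adjusted p = 0.0044), arg E002 with 0.94 ± 0.22 (SE, adjusted p = 0.019) and arg E005, outside elav, with 0.86 ± 0.31 (SE, adjusted p = 0.104) did not pass, the 3 values being of like size, and elav E001 rose by 2.76 ± 0.18.

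In the 7–8 h embryos, arg E003 had 1.62, 1.42, 2.48 and 2.08 CPM in the control and 3.96, 4.42, 5.15 and 5.78 CPM in elavnFNE, without overlap, and rose by 1.35 ± 0.17 (SE, adjusted p = 5.9e-05), as did arg E002 by 1.11 ± 0.18 (SE, adjusted p = 7.4e-04). arg E005 had -0.27 ± 0.12 (SE, adjusted p = 0.242) in that comparison. In elavmin,fnenFNE arg E003 had -1.02 ± 0.26 (SE, adjusted p = 0.039), and in Δelav,fnenFNE 0.87 ± 0.22 (SE, adjusted p = 0.062), neither of which passed. In elavmin embryos at 14–16 h all 5 arg bins, inside and outside elav, had log2 values of 0.44 to 0.75, and arg E005 rose from 11.7 to 19.3 CPM with 0.75 ± 0.10 (SE, adjusted p = 5.5e-05). In Δelav embryos they had 0.15 to 0.39, of which arg E005 alone passed, and in Δelav,fnenFNE 0.35 to 0.59, of which arg E002, E003 and E005 passed, while elav E001 rose by 1.90 and 2.10. Since the counts appear not to separate strands, elav and arg reads on these bins cannot be told apart here.

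The other genes of the family were measured beside elav. fne, the source of nuclear FNE, had 258 ± 8.90 CPM (SD, n = 4) in wild-type embryos at 14–16 h and 265 ± 6.89 CPM in Δelav, with 0.07 ± 0.04 (SE, adjusted p = 0.249), and in elavmin it had -0.02 (adjusted p = 0.687). It rose by 0.69 ± 0.08 (SE, adjusted p = 7.7e-05) in Δelav,fnenFNE at 14–16 h. In heads it had 0.14 (adjusted p = 0.290) in elavmin and 0.17 (adjusted p = 0.590) in Δelav,fnenFNE. In 7–8 h embryos it fell in elavmin,fnenFNE with -0.63 (adjusted p = 0.044), had -0.21 (adjusted p = 0.536) in Δelav,fnenFNE, and was higher in elavnFNE by 0.99 ± 0.12 (SE, adjusted p = 0.0011), where the FNE coding sequence is also present at the elav locus. The gene sum does not separate reads of that copy from reads of the fne locus, and fne was not examined bin by bin.

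Rbp9, the third family member, had 943 ± 38.1 CPM (SD, n = 3) in wild-type heads and 73.2 ± 2.37 CPM (SD, n = 4) in wild-type embryos at 14–16 h. It rose in Δelav and Δelav,fnenFNE embryos of that age, by 0.27 (adjusted p = 0.0028) and 0.27 (adjusted p = 0.0014), and fell in Δelav,fnenFNE heads, with -1.10 (adjusted p = 9.5e-06). In elavmin it had 0.05 (adjusted p = 0.501) in embryos and 0.11 (adjusted p = 0.412) in heads. No 7–8 h mutant passed for Rbp9, which had 4.03 ± 0.463 CPM in the control.

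Beside arg, 8 genes have an exon within 20 kb of elav. svr, which encodes a carboxypeptidase and whose 3′ end faces that of elav from the other strand 163 bases away, passed in none of the 8 comparisons with a control, with log2 values from -0.16 to 0.22. Over those 8 comparisons the 8 genes gave 10 calls in 61 tests, where 2.96% to 29.7% of all genes passed. CG4293, 4715 bases before the start of elav, was lower in Δelav and Δelav,fnenFNE embryos of 14–16 h, with -0.33 (adjusted p = 0.035) and -0.27 (adjusted p = 0.049). CG3156 was higher in Δelav embryos with 0.15 (adjusted p = 0.047) and CG17778 in elavmin embryos with 0.48 (adjusted p = 0.018). asRNA:CR44891 lies within the span of svr on the other strand. It was lower in elavmin and Δelav,fnenFNE embryos of 14–16 h, with -0.47 (adjusted p = 0.018) and -0.65 (adjusted p = 0.0093). Whether reads of svr were counted on it was not tested. CG17896 was higher in elavmin and Δelav,fnenFNE heads, with 0.36 (adjusted p = 0.0075) and 0.35 (adjusted p = 0.0082). Appl, the amyloid precursor-like gene of neurons, lies 7275 bases before elav, and had 61.3 ± 10.6 CPM in the 7–8 h control and 12.5 ± 3.34 CPM in elavnFNE (SD, n = 4 each). That was a fall of 2.29 on the log2 scale (adjusted p = 1.9e-04), where Δelav,fnenFNE and elavmin,fnenFNE had -0.21 (adjusted p = 0.549) and -0.51 (adjusted p = 0.216). In Δelav,fnenFNE heads Appl was lower with -0.49 (adjusted p = 0.0034). Of the 10 pan-neuronal genes, Appl among them, 1 passed in elavnFNE.

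Lists of other cell types were summed in the same libraries. Of all genes, 22.7% to 29.7% passed against wild type at 14–16 h, 20.2% and 28.3% in heads and 2.96% to 9.71% at 7–8 h. At 14–16 h, 4 neuroblast genes had 44.7 to 50.1 CPM in wild type and 59.2 to 66.2 CPM in Δelav, where ase, wor and mira rose, and 54.9 to 63.9 CPM in Δelav,fnenFNE, where ase and wor rose. In 7–8 h embryos the same genes had 908 to 940.3 CPM in the control and 944 to 1025, 999.5 to 1078 and 895 to 992 CPM in elavmin,fnenFNE, Δelav,fnenFNE and elavnFNE, and ase and wor rose in each of the 3 mutants. The 5 glial genes summed to 861 to 902 CPM in wild-type heads and 386 to 427 CPM in wild-type embryos at 14–16 h, and at most 3 of them passed in any comparison with a control. The 5 muscle genes summed to 5360.4 to 6627 CPM in wild-type heads and 8653 to 9415 CPM in Δelav,fnenFNE heads, where Tm2, up and Mhc rose and Mef2 fell. The part of these cell types in the elav values was not tested.

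Across the 11 group means, the 5 genes whose level, as log2 of CPM + 1, had the highest Pearson r with that of elav among 9268 genes with a mean of at least 5 CPM were asRNA:CR43430 (0.826), Hr78 (0.803), CG15386 counted with CG42371 (0.799), Rab18 (0.782) and EDTP (0.765). The group means share stages, controls and depth, and the values are a description. Over the group means, Rab18 went from 36.2 to 44.5 CPM and Hr78 from 69.2 to 152 CPM.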

How the data were processed

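Counts per exon bin were made by the authors and deposited unnormalized: paired-end reads of stranded poly(A) libraries were mapped to dm6 with STAR in snakePipes and counted with HTSeq on Ensembl release 96, with the replicates kept apart. The tables' own exon usage statistics and fold changes were not used. The 8 tables repeat control libraries in 19 columns, which were read once, giving 41 libraries, and 78 lines per table without a strand were left out.

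Counts were summed over bins for gene levels. edgeR 4.0.16 (R 4.3.3) was run on all genes or all bins after filterByExpr, with TMM factors, a robust quasi-likelihood fit to the libraries of the groups compared and Benjamini-Hochberg adjustment. Bin usage was tested with diffSpliceDGE, whose coefficients were converted to log2. This stands in for the usage test of the study's own tool, which was not run here. The 200 changed features simulated on real library sizes in each of 3 designs were recovered at 99.5% or more for genes and bins, and for usage at 88.4% (Δelav, 14–16 h), 81.8% (elavmin heads) and 90.5% (Δelav,fnenFNE, 7–8 h). These features had high counts, large changes and a fixed spread between libraries. Recovery of smaller changes, of low counts or at the spread of the real libraries was not tested. Alternatives were DESeq2 1.42.0 and its size factors, limma 3.58.1 voom, no filter, a replicate block, 1 fit per stage, other thresholds and each library left out, and 2 more were added after the data had been seen (arg counts taken off E001, photoreceptor genes left out).

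The gene, its bins, the gene lists and the tests were chosen with earlier results of these data known. All 6 bins were described, and other genes only from the lists (ELAV family, pan-neuronal, glial, neuroblast, photoreceptor, muscle), from within 20 kb, or as the 5 most alike across group means. Of 40 listed genes 5 are counted together with another gene and were left out. Whether libraries of 1 group came from separate crosses is not stated, so p-values measure the spread between libraries only. Depth limits E004 most, with 27 to 274 counts per library.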

Additional observations from a re-analysis of the deposited data

Results flagged for a closer look

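In 4 of 104 groups of values tested, 1 library lay far from the other 3 of its group by Dixon's criterion, which chance alone meets in about 1 in 20 groups. Wild-type replicate 1 at 14–16 h had 7.98 CPM on E002, where the nearest library had 6.57. Δelav replicate 2 at 14–16 h had 121 CPM on E003, with the nearest at 104. The 7–8 h control replicate 4 had 5.75% of its elav counts on E002, with the nearest at 6.01%. elavnFNE replicate 1 had 33.7 CPM on E006, with the nearest at 38.3.

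The change of elav differed between heads and 14–16 h embryos by the interaction test in edgeR. For elavmin the difference was -0.71 over the gene, -0.82 on E001, -0.65 on E002 and -0.66 on E003. For Δelav,fnenFNE it was 0.42 over the gene, -0.98 on E005 and -1.49 on the usage of E005. Photoreceptor genes differed between the head genotypes as given with the heads, and their part in these differences was not tested.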

How the results depend on the processing

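The gene-level change of elavmin heads, 0.27, lost its call with DESeq2 size factors, 0.27 (adjusted p = 0.053), with all groups of the stage in 1 fit, 0.27 (adjusted p = 0.138), without the coding bin, 0.15 (adjusted p = 0.211), and without photoreceptor genes, 0.27 (adjusted p = 0.051), and ran from 0.20 to 0.33 with 1 library left out. Leaving the coding bin out of the total also gave 0.77 (adjusted p = 0.0080) for Δelav,fnenFNE at 7–8 h, which passed with DESeq2 as well, 0.30 (adjusted p = 0.046). It turned elavnFNE against control to 0.44 (adjusted p = 0.014), took the call from elavnFNE against Δelav,fnenFNE, -0.34 (adjusted p = 0.106), and gave one to elavnFNE against elavmin,fnenFNE, 0.77 (adjusted p = 2.6e-05). These follow from the coding counts taken out. With 1 library left out, elavnFNE against Δelav,fnenFNE ran from -0.53 to -0.41 and the difference between heads and embryos of Δelav,fnenFNE from 0.31 to 0.52. Taking arg counts off turned E001 between wild-type heads and embryos to 0.28 (adjusted p = 0.0019), where the subtraction may take off too much.

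Usage by limma voom is measured against the other bins of the gene, and usage in edgeR against the whole gene, so the values are not the same measure. Counts of bins called moved as follows, and the cause was not tested. By limma voom 2 bins instead of 1 passed in usage for elavmin at 14–16 h, elavmin heads and Δelav,fnenFNE heads, the added one being E001 with -0.41 (adjusted p = 4.1e-06), -0.63 (adjusted p = 1.7e-04) and 0.88 (adjusted p = 0.0035). Over all 20 comparisons limma voom added 8 usage calls and took away 5, which were E006 of Δelav,fnenFNE at 14–16 h, E005 of Δelav,fnenFNE at 7–8 h, E002 of elavmin against Δelav, and E005 and E006 of elavmin,fnenFNE against Δelav,fnenFNE (adjusted p of 0.0105 to 0.067). In elavmin heads the 4 bins called by level became 1 in the fit of the stage, 1 at a threshold of 0.001 and 1 to 4 with 1 library left out. In Δelav,fnenFNE at 7–8 h the 3 bins became 5 in the fit of the stage, with DESeq2 and at 0.05, and the 3 usage calls became 1 at 0.001 and 1 to 2 with 1 library left out. In elavmin,fnenFNE the 2 bins became 1 with DESeq2 size factors, in the fit of the stage and with arg counts taken off, 0 at 0.001 and 0 to 3 with 1 library left out. In elavnFNE the 5 bins became 4 with arg counts taken off, 2 at 0.001 and 3 to 5 with 1 library left out.

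The replicate numbers were treated as names of samples, since the lowest correlation of same-numbered libraries was below 0.1 in all 20 pairs of groups (-0.489 to 0.0352). The highest reached 0.65, between elavmin,fnenFNE and Δelav,fnenFNE at 7–8 h. Whether some same-numbered libraries share a batch was not tested. With the replicate block, 20 of 20 gene results, 112 of 120 bin results and 116 of 120 usage results kept their side of the threshold. At 7–8 h the block gave 5 bins and 1 usage call in Δelav,fnenFNE, 1 bin in elavmin,fnenFNE and 3 bins in elavnFNE, and E001 of Δelav,fnenFNE then had 0.75 (adjusted p = 5.0e-05). Shares of elav counts moved by more than 1 SD in 51 of 55 cases when E003 was taken out of the denominator, by construction. Without a filter on low counts no gene call changed. Depth bears most on E004, and the apparent counting on both strands on E001.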
